A study of Homo sapiens with 4 samples.

Results

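MCF10A cells carrying a miR-105 retroviral construct were set against 2 control lines of the same cells, 1 with the empty pBabe vector and 1 with pBabe-GFP. MCF10A is an immortalised, non-tumorigenic human mammary epithelial line of basal character. Poly(A) RNA was sequenced, with 1 library per construct and therefore no replicate. A further library, from cells carrying pBabe-MYC, entered the scaling, the expression filter and a few levels given below. All lines were stable transductants grown in the same DMEM/F12 medium, to which hydrocortisone, cholera toxin, EGF, insulin and horse serum had been added, and the labels do not say whether each line was a pool or a clone. A gene was counted as different only if it stood at least 2-fold above, or at least 2-fold below, each control. That comparison covered all 12484 genes, of 18840 in the table, whose mean level reached 1 CPM (reads scaled to the size of the library), and 3 of the 4 libraries of the series. Where 3 levels are given for a gene they are CPM in the vector, GFP and miR-105 libraries in that order, and where 2 folds are given they are ratios of CPM against vector and then against GFP. Ranges after a fold are exact 95% counting intervals. They cover counting error alone, since 1 library holds no measure of how cultures vary, and the construct and any other difference between the cultures cannot be told apart.

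MicroRNAs are short RNAs that guide Argonaute proteins to messenger RNAs, mostly through base pairing of the seed, bases 2 to 8, with the 3′ UTR, and lower the stability or translation of the target. MiR-105 has been reported to act on MXI1, a protein that competes with MYC for its partner MAX, and on TJP1, the tight junction scaffold ZO-1. A cell that divides turns on genes in waves: E2F factors, released from the retinoblastoma proteins by cyclin-dependent kinases, drive the genes of DNA replication, and the MYBL2 and FOXM1 factors then drive the genes of mitosis. In resting cells the DREAM complex, which holds RBL2 and E2F4, keeps both waves off, and FOXO factors keep on genes that insulin signalling represses.

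The construct is named for a microRNA with 2 genomic copies, MIR105-1 and MIR105-2, on the minus strand of the X chromosome, and both give the same mature arms (RefSeq, GRCh38.p14, chrX:152392219-152392299 and chrX:152394412-152394492). The mature arms are shown because their seeds define which transcripts could pair with the microRNA, with the seed in capitals.
hsa-miR-105-5p: uCAAAUGCucagacuccuguggu
hsa-miR-105-3p: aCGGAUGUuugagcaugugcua
The MIR105-1 hairpin is shown with its 5p arm in capitals, and the MIR105-2 hairpin differs from it at 2 of 81 bases.
MIR105-1 hairpin: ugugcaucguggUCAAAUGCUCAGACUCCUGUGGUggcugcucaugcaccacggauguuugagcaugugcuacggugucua
A full match to the 5p seed followed by A, called an 8mer site, reads GCATTTGA. Both reported targets hold it in the 3′ UTR of their principal GENCODE 29 transcript. The 8mer of MXI1 lies at bases 1026 to 1033 of a 1519-base UTR, and those of TJP1 at 329 to 336 and 913 to 920 of 2228 bases, where TJP1 also has the seed match without the A at 118 to 124 and 773 to 779. The windows below give each 8mer in capitals.
MXI1 site: tctattttgatgcaGCATTTGAtaatgat
TJP1 first site: cagtaaatgggggtGCATTTGAggtctgt
TJP1 second site: ttctttctggctatGCATTTGAaaatttt
MXI1 mRNA stood at 81.2, 88.9 and 13.96 CPM, 5.82-fold and 6.37-fold below the controls. TJP1 stood at 264, 388 and 219 CPM, below both controls but by less than 2-fold, and the controls themselves lay 1.47-fold apart. The 2 reported targets therefore parted: MXI1 passed the threshold and TJP1 did not. MicroRNA primary transcripts were not analysed here, so the amount of miR-105 in any library is not known.

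The libraries held 9138429 reads for vector, 14025115 for GFP and 6859698 for miR-105, so that 1 read was worth 0.108, 0.0722 and 0.157 CPM, and the miR-105 library was the shallowest. The markers of the line were checked first. KRT5, a basal keratin, stood at 1757, 1614 and 4654 CPM, and E-cadherin CDH1 at 549, 768 and 368 CPM. P-cadherin CDH3 stood at 203, 248 and 335 CPM and the EGF receptor EGFR at 306, 920.4 and 507 CPM. CDKN2A and CDKN2B, which this line has lost, were at 0 reads throughout, and in the shallowest library that leaves room for up to 0.471 CPM. The oestrogen receptor gene ESR1 was low, at 6.49, 7.87 and 13.2 CPM. The basal factor TP63 was low too, at 7.14, 14.4 and 6.12 CPM. The basal keratins KRT14 and KRT17 remained detected but were lower in the miR-105 library, as described below. Markers of other cell types were summed: fibroblast markers summed to 229, 216 and 229.8 CPM, leukocyte markers to 96.0, 99.3 and 42.97 CPM and endothelial markers to 47.1, 49.7 and 3.61 CPM. Of the 9 fibroblast markers 4 reached the expression filter. The matrix protein periostin (POSTN) was higher at 12.9, 5.06 and 114 CPM, decorin (DCN) lower at 117, 69.4 and 16.0 CPM. Of 9 leukocyte markers 3 and of 6 endothelial markers 2 reached it, and CD14, CSF1R, PECAM1 and KDR were each lower in the miR-105 library. Of the defining markers, COL3A1 and MS4A1 had 0 reads in all 3 libraries, and PTPRC, LYZ and PDGFRA 0 reads in vector and miR-105 and 1 in GFP. In a bulk library, fewer cells of a type and less RNA per cell cannot be told apart.

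Of the 12484 genes, 1833 stood at least 2-fold above both controls and 2071 at least 2-fold below both, that is 14.7% and 16.6%. Between the controls themselves, 382 genes were at least 2-fold higher in GFP than in vector (3.06%) and 128 lower (1.03%). The miR-105 library thus departed from each control by far more genes than the controls departed from each other. Only 2 genes lay past 2-fold in opposite directions against the 2 controls. For 137 of the 3904 genes counted the controls also differed 2-fold from each other. The genes counted as higher took 27.6% of the reads of the miR-105 library, against 8.57% in vector and 8.46% in GFP, while the genes counted as lower took 4.39% against 18.8% and 18.2%. Differences of at least 10-fold against both controls were seen in 191 genes upwards and 165 downwards. The median log2 difference over all genes, after adding 0.5 CPM, was 0.05 against vector and −0.03 against GFP. With library totals alone in place of TMM scaling these medians were −0.06 and −0.11, and the counts were 1596 higher and 2278 lower, so values near 0 depend on the scale.

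**Figure D1:**
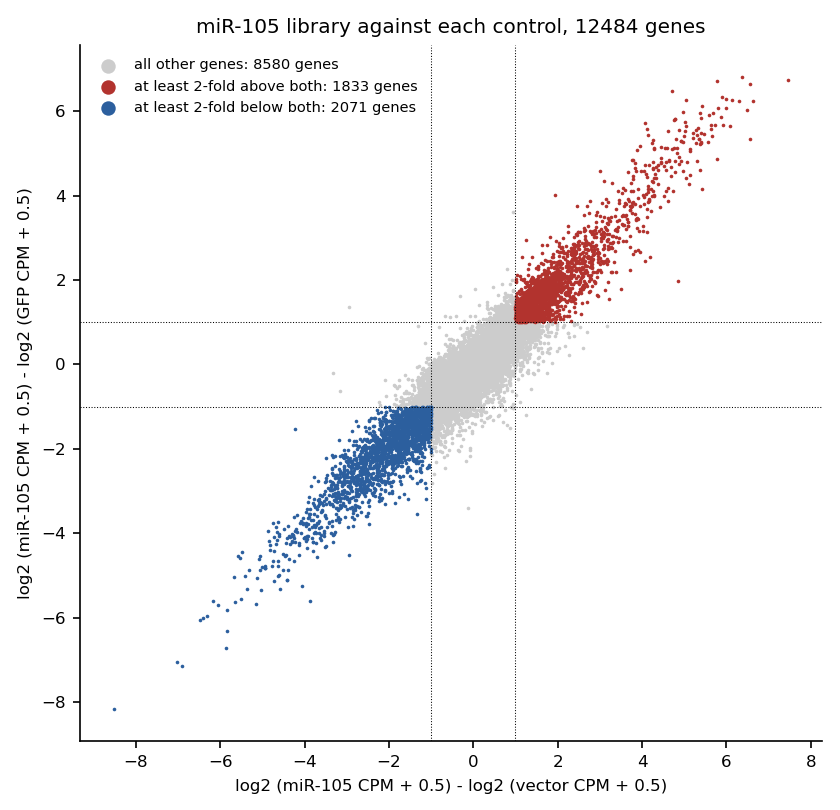
Each point is 1 of 12484 genes, placed by the log2 difference of the miR-105 library from the vector library (horizontal) and from the GFP library (vertical), both after adding 0.5 CPM. Dotted lines mark 2-fold. The 1833 genes above both controls and the 2071 below both lie along the diagonal, and few genes lie off it.

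The genes that stood highest over the controls were genes of DNA replication and cell division. All 12 genes with the largest differences belong to that machinery: RRM2, MCM10, MYBL2, BUB1, MKI67, DLGAP5, DTL, KIF20A, CEP55, KIF14, ANLN and EXO1. In 9 lists that together cover replication, nucleotide supply, cell cycle control, chromosome segregation and recombination repair, 219 of 262 compared genes were higher and 1 was lower, and 112 of the 191 genes that were 10-fold higher belong to them. Their summed level was 8095 CPM in vector and 8204 in GFP, and 40389.8 CPM in the miR-105 library. In the MYC library it was 9909 CPM. Most other levels of that library are left out, so a gene counted here need not be particular to the miR-105 line. Outside these lists 13.2% of 12222 genes were higher. The lists were written with earlier results of these data known, so their direction is a description. The counts of every list below stand against the 14.7% higher and 16.6% lower of all compared genes.

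**Figure D2:**
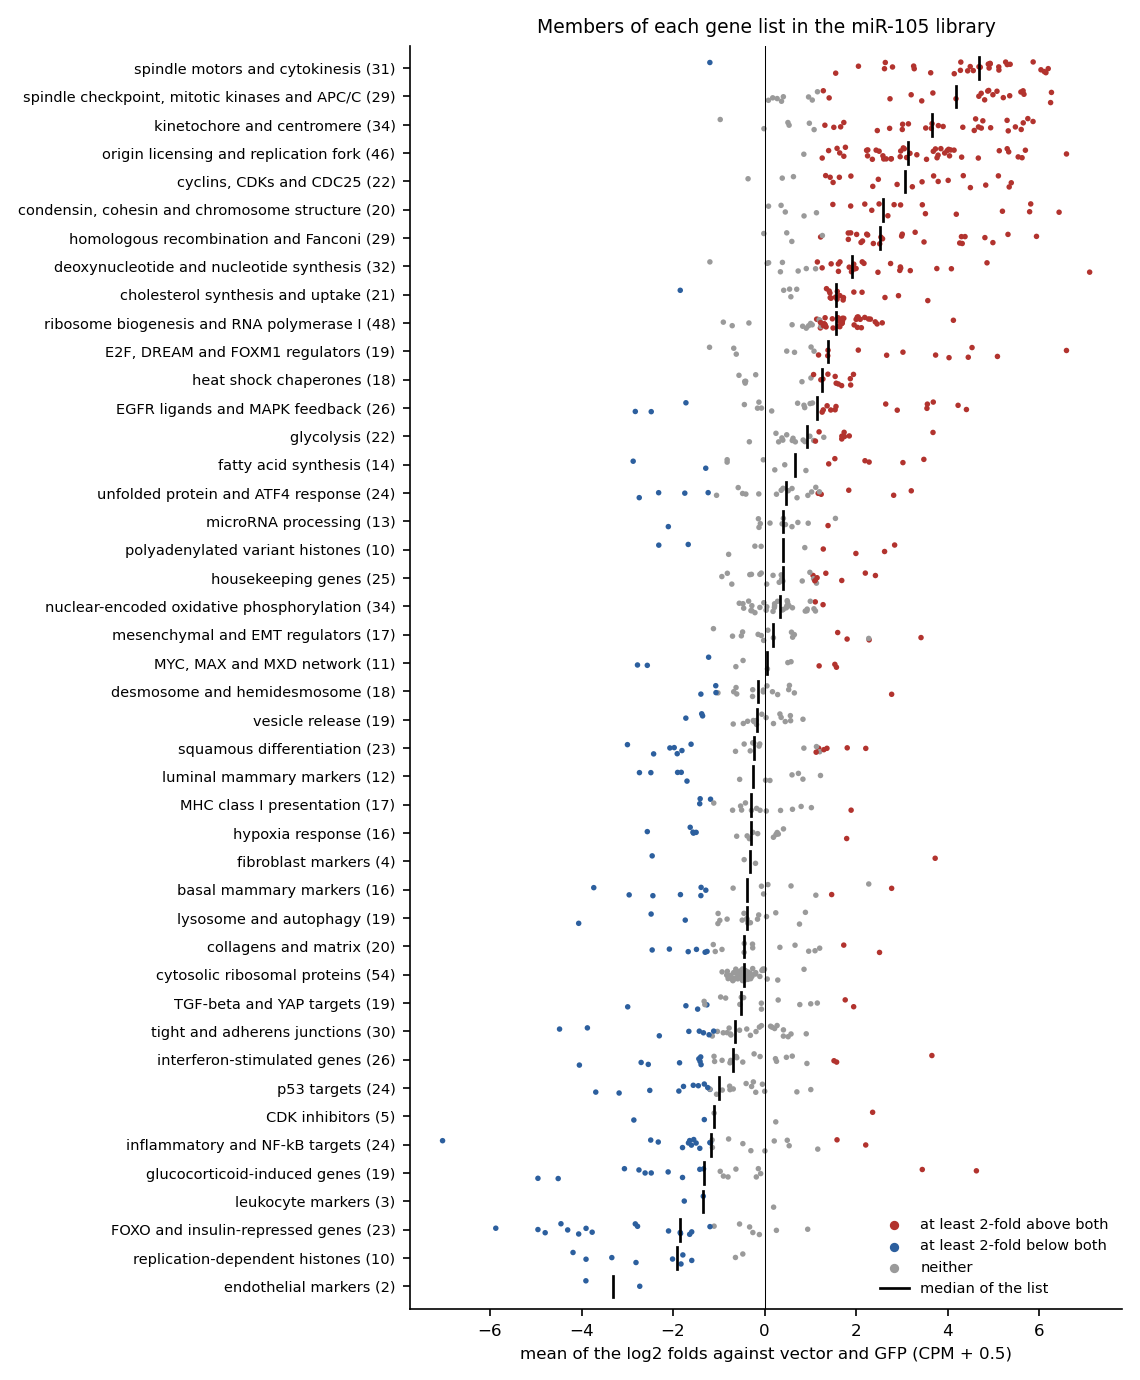
Each point is a compared member of a gene list (number compared in brackets), placed by the mean of its log2 differences from vector and from GFP after adding 0.5 CPM; colour gives the 2-fold rule against both controls and the black bar the median. Cell cycle lists lie in the upper rows with medians from 1.39 to 4.69, apart from CDK inhibitors and variant histones. FOXO targets and replication-dependent histones have medians of −1.84 and −1.92.

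Of the genes that license origins and run the replication fork, 45 of 46 were higher and 0 lower. The median log2 difference of this list was 3.04 against vector and 3.20 against GFP. MCM10, which loads at the helicase, went from 6 and 8 reads in the controls to 684, levels of 0.649, 0.578 and 107 CPM. CDC6, which loads the helicase at origins, stood at 2.59, 2.74 and 164 CPM, 63.3-fold (42.3 to 99.2) and 59.8-fold (43.3 to 85.0) higher. CDC45, a component of the active helicase, stood at 0.865, 0.506 and 57.4 CPM, and its control levels rest on 8 and 7 reads. UHRF1, which carries DNA methylation through replication, stood at 6.27, 7.51 and 343 CPM, 54.7-fold (42.1 to 72.3) and 45.6-fold (37.5 to 56.1) higher. The licensing factor CDT1, for which the controls lay further apart, stood at 10.8, 3.25 and 89.7 CPM, 8.30-fold and 27.6-fold higher. The sliding clamp PCNA stood at 37.4, 30.4 and 279 CPM, 7.47-fold (6.66 to 8.41) and 9.19-fold (8.26 to 10.2) higher. The clamp loader subunit RFC1, named after its values were seen because it was the exception, stood at 57.0, 72.2 and 117 CPM, at least 2-fold above vector but not above GFP. DTL, which directs CDT1 to destruction, stood at 0.541, 0.939 and 93.0 CPM.

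The supply of nucleotides stood higher as well, with 24 of 32 genes higher, 0 lower and medians of 1.93 and 1.80. RRM2, the S-phase subunit of ribonucleotide reductase (GRCh38 chr2:10120698-10131419), had the largest difference of all genes by the smaller of its log2 differences, at 3.03, 5.35 and 624 CPM. Thymidine kinase TK1 stood at 5.19, 3.40 and 136 CPM, 26.3-fold (19.6 to 35.9) and 40.1-fold (29.9 to 55.1) higher, and thymidylate synthase TYMS at 10.1, 10.2 and 144 CPM, 14.3-fold (11.5 to 17.9) and 14.1-fold (11.8 to 17.0) higher. These salvage and synthesis enzymes of thymidine nucleotides were low in both controls and high in the miR-105 library.

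Of the E2F, DREAM and FOXM1 regulators, activators and repressors among them, 12 of 19 were higher, 0 lower and 7 neither, with medians of 1.71 and 1.26. The activators E2F1 and E2F2 stood at 2.81, 2.02 and 62.7 CPM and at 0.865, 0.939 and 47.2 CPM, 22.3-fold and 31.0-fold higher for E2F1. E2F8, a repressor that is itself made late in the wave, stood at 0.865, 0.867 and 17.7 CPM. The mitotic activators MYBL2 and FOXM1 stood at 3.03, 2.09 and 293 CPM and at 13.1, 8.81 and 260.04 CPM, and FOXM1 was 19.9-fold (16.5 to 24.1) and 29.5-fold (24.5 to 35.8) higher. Among the pocket proteins, RBL1 (p107) stood at 6.92, 8.23 and 50.7 CPM and RB1 at 36.4, 54.6 and 117 CPM, both counted as higher. RBL2 (p130), the pocket protein of resting cells, stood at 109, 162 and 86.6 CPM, below both controls but under 2-fold. Of the 3 pocket proteins RBL2 was thus the 1 that was not higher.

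Of cyclins, their kinases and CDC25 phosphatases, 19 of 22 were higher and 0 lower, with medians of 2.77 and 3.36. CDK1, the mitotic kinase, stood at 6.59, 4.12 and 232 CPM, 35.2-fold (27.3 to 46.3) and 56.4-fold (43.3 to 74.9) higher, and its partner cyclin B1 (CCNB1) at 18.2, 10.7 and 606 CPM, 33.4-fold (28.6 to 39.2) and 56.7-fold (48.1 to 67.3) higher. Cyclin A2 (CCNA2), which acts in S phase and G2, stood at 12.6, 11.5 and 254 CPM. The G1/S cyclins CCNE1 and CCNE2 stood at 5.30, 4.98 and 28.5 CPM and at 2.81, 3.47 and 46.4 CPM. Of the cyclins and kinases named, those of G1 differed least: cyclin D1 (CCND1) stood at 124, 155 and 393 CPM, 3.17-fold and 2.53-fold higher, and its kinase CDK4 at 62.3, 45.6 and 135 CPM, 2.17-fold and 2.97-fold higher. The phosphatase CDKN3 stood at 1.73, 1.23 and 67.3 CPM. The inhibitors of these kinases did not move together, with 1 of 5 compared members higher and 2 lower. CDKN2C (p18) was higher at 4.86, 2.96 and 21.6 CPM. CDKN1A (p21) was lower at 503, 516 and 204 CPM, 2.46-fold (2.32 to 2.62) and 2.53-fold (2.38 to 2.68) below the controls, and CDKN1C (p57) at 13.9, 5.49 and 0.784 CPM rested on 5 reads in the miR-105 library. CDKN1B (p27) stood at 58.2, 47.8 and 24.3 CPM, 2.39-fold and 1.97-fold lower, and missed the threshold against GFP.

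Mitotic genes showed the largest medians. Of spindle motors and cytokinesis genes 30 of 31 were higher and 1 lower, with medians of 4.38 and 4.74, and of spindle checkpoint, mitotic kinase and APC/C genes 21 of 29 were higher and 0 lower, with medians of 4.08 and 4.23. KIF20A, a motor of the cleavage furrow, stood at 5.08, 4.77 and 356 CPM, 70.1-fold (52.6 to 95.7) and 74.7-fold (58.5 to 97.0) higher. ANLN, the anillin scaffold of the contractile ring, stood at 24.5, 24.3 and 1456 CPM, 59.3-fold (52.01 to 68.0) and 59.99-fold (53.8 to 67.1) higher. CEP55, which acts at abscission, stood at 2.70, 2.09 and 204 CPM, and DLGAP5, a spindle assembly factor, at 2.16, 1.95 and 187 CPM. The spindle factor TPX2 stood at 16.1, 11.1 and 535 CPM and the motor KIF11 at 11.8, 11.6 and 215 CPM. NUMA1, a spindle pole protein that also serves in the interphase nucleus, was the 1 lower member, at 552, 641 and 259 CPM.

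The kinase BUB1 of the spindle checkpoint stood at 2.16, 2.24 and 208 CPM, PLK1 at 6.59, 4.26 and 295 CPM and Aurora A (AURKA) at 4.32, 3.47 and 179 CPM. Survivin (BIRC5), of the chromosomal passenger complex, stood at 3.78, 1.73 and 235 CPM, 62.1-fold (44.5 to 89.5) and 136-fold (90.8 to 212) higher. The 2 activators of the anaphase-promoting complex parted: CDC20, which acts in mitosis, stood at 10.8, 4.33 and 371 CPM, 34.3-fold (28.1 to 42.3) and 85.5-fold (66.2 to 112) higher, and FZR1, which acts in G1, at 64.5, 74.3 and 73.4 CPM, within the range of the controls. Of kinetochore and centromere genes 28 of 34 were higher and 0 lower, with medians of 3.59 and 3.60. KNL1, the scaffold on which BUB1 docks, stood at 1.73, 2.53 and 151 CPM, and the NDC80 complex members NDC80 and SPC25 at 2.16, 1.81 and 65.6 CPM and at 0.216, 0.0722 and 34.03 CPM. SPC25 had 2 and 1 reads in the controls, so its ratios, 157-fold (43.1 to 1308) and 471-fold (83.7 to 18694), have wide intervals. SKA1, which holds microtubules at the kinetochore, stood at 0.541, 0.506 and 51.0 CPM and the centromeric histone CENPA at 1.08, 0.722 and 42.2 CPM.

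Of condensin, cohesin and chromosome structure genes 15 of 20 were higher and 0 lower, with medians of 2.79 and 2.40. MKI67, the Ki-67 protein of the chromosome surface (GRCh38 chr10:128096659-128126385, minus strand), stood at 11.4, 14.9 and 1169 CPM, TOP2A, the topoisomerase of dividing cells, at 20.97, 15.5 and 679 CPM, and lamin B1 (LMNB1) at 3.68, 4.48 and 252 CPM. The condensin subunit NCAPH stood at 1.41, 1.08 and 97.4 CPM. Recombination repair and Fanconi genes were higher in 25 of 29 and lower in 0, with medians of 2.53 and 2.45. BRCA1 stood at 4.97, 7.37 and 126 CPM, 25.3-fold (18.8 to 34.8) and 17.1-fold (13.9 to 21.2) higher, and FANCD2 at 9.08, 10.8 and 101 CPM. The nuclease EXO1 stood at 0.541, 0.361 and 57.7 CPM, the helicase BLM at 0.541, 1.44 and 56.3 CPM and the kinase CHEK1 at 12.5, 11.8 and 75.3 CPM. For each of these genes the miR-105 library lay above both controls by more than the controls lay apart.

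**Figure D3:**
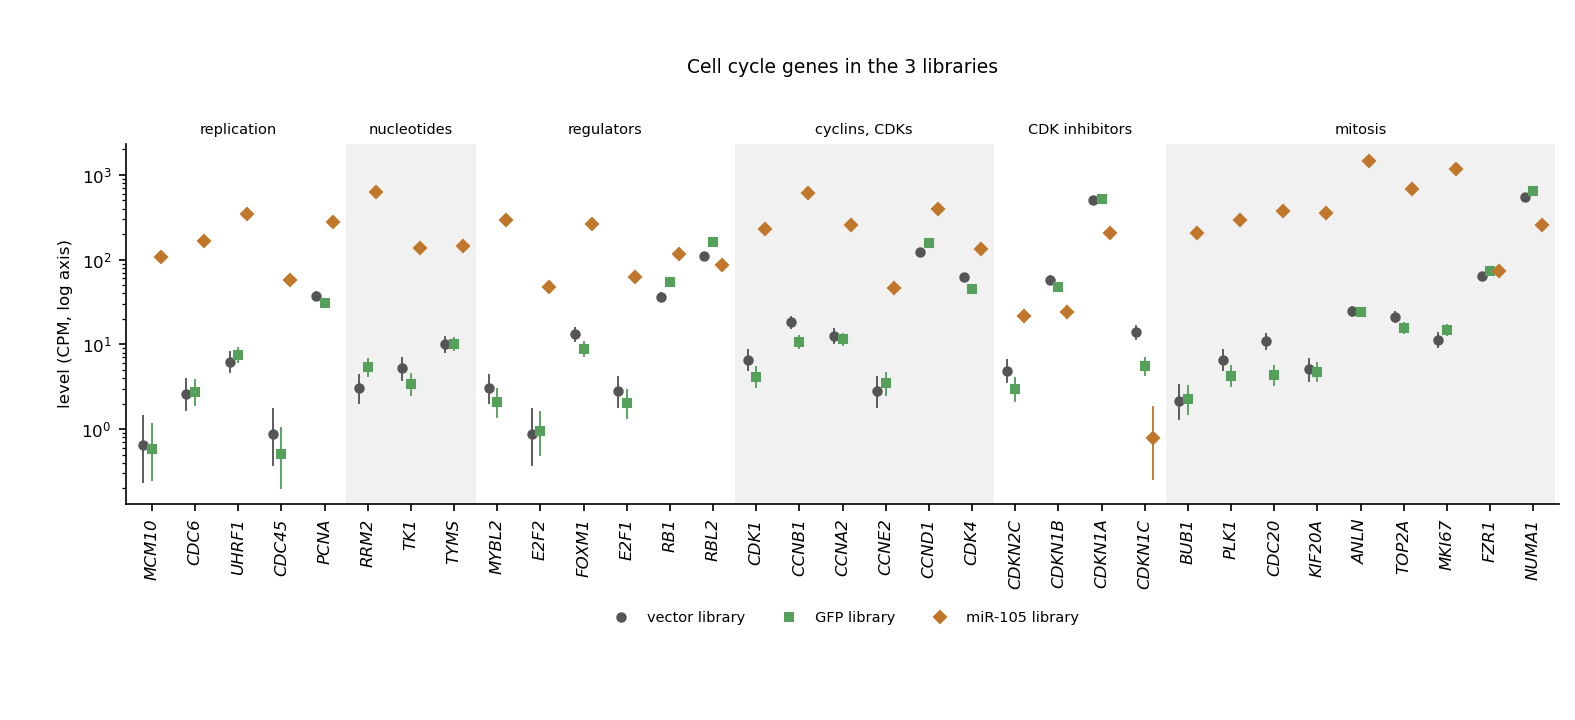
Level of cell cycle genes in CPM on a log axis in the vector, GFP and miR-105 libraries, 1 library each; vertical lines are exact 95% Poisson counting intervals and are hidden by the symbol where narrow. Replication, nucleotide and mitotic genes lie above both controls in the miR-105 library, while RBL2, CDKN1B, CDKN1A, CDKN1C and NUMA1 lie below both and FZR1 does not leave the range of the controls.

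In these poly(A) libraries replication-dependent histone genes were not among the genes counted as higher. The S-phase messages of these genes end in a stem-loop and not in a poly(A) tail. Of 10 compared members 8 were lower and 0 higher, with medians of −2.06 and −1.87. HIST2H2BE stood at 21.8, 22.2 and 1.73 CPM, HIST1H2BD at 34.7, 26.7 and 1.57 CPM and HIST1H2AC at 16.6, 17.7 and 0.471 CPM. Without the expression filter, which admits the other members with few reads, the median over both controls was −0.64. Poly(A) selection leaves few stem-loop messages, and the 27 members summed to 185, 148 and 24.9 CPM. These counts therefore cannot tell how the stem-loop form stood in any library. Histone variants with poly(A) tails divided, with 4 of 10 higher and 2 lower. H2AFZ stood at 112, 73.8 and 656 CPM, 5.84-fold (5.45 to 6.26) and 8.89-fold (8.30 to 9.53) higher, and H2AFX, the variant marked at DNA breaks, at 22.2, 18.6 and 128 CPM. The linker histone H1F0, typical of arrested and differentiated cells, was lower at 238, 170.3 and 40.2 CPM, 5.93-fold (5.21 to 6.77) and 4.24-fold (3.73 to 4.84) below the controls, and H2AFJ was lower at 81.2, 51.1 and 19.9 CPM.

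Promoters were searched for the motifs these factors are known to bind. In each list all members with a promoter were counted, whether or not they passed the 2-fold rule. RefSeq windows of 250 bases before to 50 bases after the first listed start (GRCh38.p14) were matched to 10230 of the compared genes (81.9%). The E2F site was searched as TTTCCCGC, TTTGGCGC, TTTCGCGC or TTTGCCGC, the cell cycle homology region (CHR) as TTTGAA and the CCAAT box as CCAAT, each on both strands. An E2F site lay in 19 of 41 promoters of origin and fork genes (46.3%), against 5.24% of all compared genes. A CHR lay in 1 of those 41. For mitotic genes the CHR was the more frequent of the 2. It lay in 21 of 29 promoters of spindle motor and cytokinesis genes (72.4%), against 9.75% of all. An E2F site lay in 3 of those 29 (10.3%), against 5.24% of all. A CHR together with a CCAAT box lay in 18 of those 29 (62.1%), against 4.12% of all compared genes. Kinetochore promoters held a CHR in 12 of 28 (42.9%) and condensin and chromosome structure promoters in 8 of 17 (47.1%). Of 40 ribosome biogenesis promoters 2 held an E2F site and 6 a CHR. The E-box, searched as CACGTG, lay in 12 of those 40, against 10.1% of all compared genes. The E-box also lay in 5 of 21 promoters of FOXO and insulin-repressed genes, and in 2 of 43 of cytosolic ribosomal protein genes. Of higher genes 12.4% held an E-box and of lower genes 8.53%. Over all 1519 higher genes with a promoter, 8.76% held an E2F site and 14.7% a CHR, and over 1595 lower genes 3.39% and 8.28%. Among all 27305 promoters of the table the shares were 3.33% and 15.4%. These are matches of letters and not bound sites. The share of a list depends on which genes were put in it, and not on their levels in these libraries.

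The 4 promoters below were picked to show the 2 kinds, with every E2F, CHR and CCAAT match in capitals. CDC6 and E2F1, of the replication wave, hold E2F sites downstream of CCAAT boxes, and CDC20 and PLK1, of the mitotic wave, hold a CHR downstream of a CCAAT box.
CDC6 (chr17:40287629-40287928, plus strand): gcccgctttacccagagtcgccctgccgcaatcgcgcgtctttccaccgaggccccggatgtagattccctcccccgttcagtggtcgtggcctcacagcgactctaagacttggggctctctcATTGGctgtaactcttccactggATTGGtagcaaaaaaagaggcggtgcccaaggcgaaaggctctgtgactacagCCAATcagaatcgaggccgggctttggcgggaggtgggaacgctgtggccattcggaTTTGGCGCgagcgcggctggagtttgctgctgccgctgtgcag
E2F1 (chr20:33686336-33686635, minus strand): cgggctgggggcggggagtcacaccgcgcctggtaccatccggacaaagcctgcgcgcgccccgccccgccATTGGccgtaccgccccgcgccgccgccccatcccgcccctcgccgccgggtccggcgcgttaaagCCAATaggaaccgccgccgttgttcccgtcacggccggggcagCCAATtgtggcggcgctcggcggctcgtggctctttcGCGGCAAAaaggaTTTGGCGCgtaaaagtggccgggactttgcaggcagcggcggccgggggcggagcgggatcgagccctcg
CDC20 (chr1:43358731-43359030, plus strand): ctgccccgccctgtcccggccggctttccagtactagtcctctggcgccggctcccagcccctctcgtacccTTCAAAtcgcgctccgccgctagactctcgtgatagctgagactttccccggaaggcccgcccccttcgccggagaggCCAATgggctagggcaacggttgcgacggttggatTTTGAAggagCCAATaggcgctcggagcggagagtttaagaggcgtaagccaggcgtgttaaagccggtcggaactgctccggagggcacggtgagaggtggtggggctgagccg
PLK1 (chr16:23678639-23678938, plus strand): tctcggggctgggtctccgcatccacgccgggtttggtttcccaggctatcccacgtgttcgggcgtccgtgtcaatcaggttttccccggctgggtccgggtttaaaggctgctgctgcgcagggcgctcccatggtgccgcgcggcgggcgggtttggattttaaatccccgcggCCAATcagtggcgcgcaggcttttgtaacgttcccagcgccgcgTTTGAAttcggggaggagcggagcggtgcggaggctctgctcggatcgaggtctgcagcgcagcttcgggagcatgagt
In the miR-105 library E2F1 was 22.3-fold and 31.0-fold higher and PLK1 44.8-fold and 69.3-fold higher, and the folds of CDC6 and CDC20 are given above. The windows of MCM10, RRM2, BUB1 and KIF20A, among the genes with the largest differences, held CCAAT boxes but none of these E2F or CHR letters. Other windows differed too: CCNB1 held CCAAT boxes alone, CDC25C no match, CDK1 both a CHR and an E2F site, and CCNB2 a CHR.

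**Figure D4:**
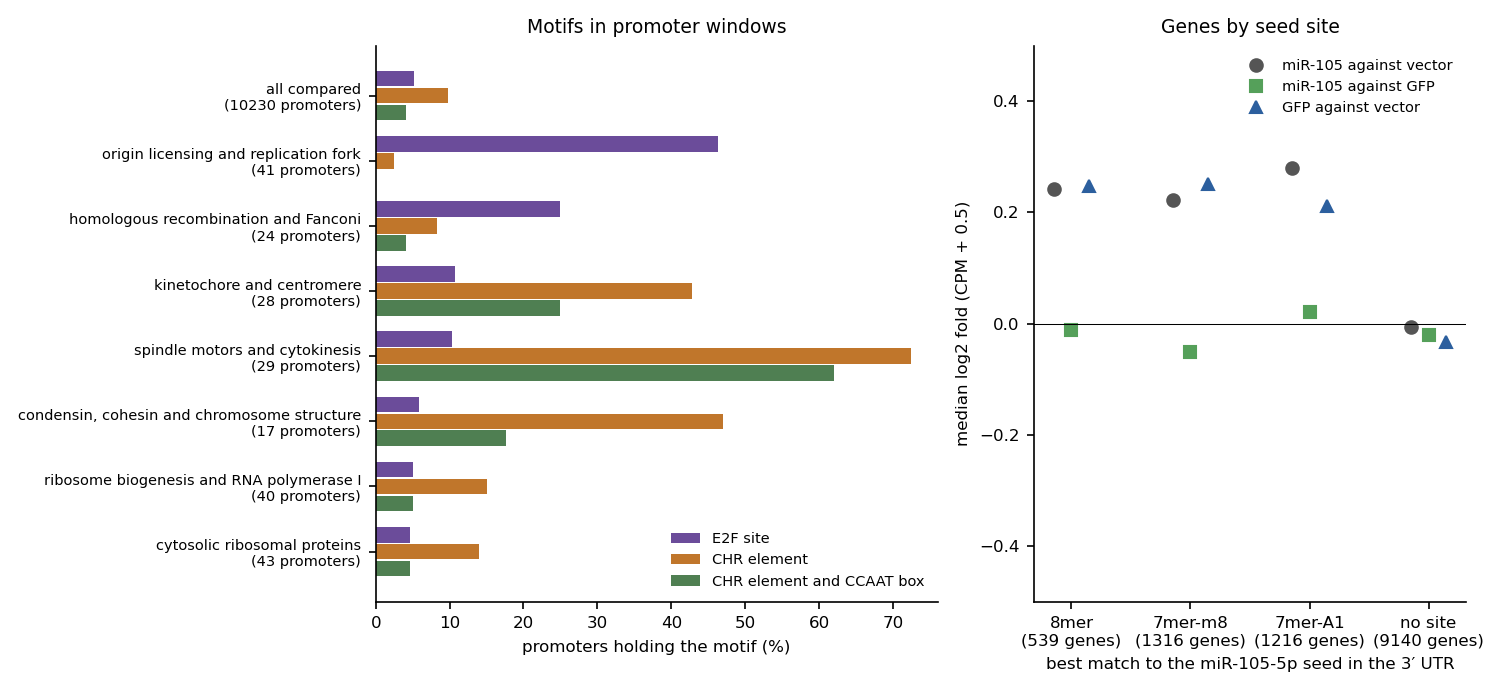
Left, share of promoter windows (250 bases before to 50 after the start) that hold an E2F site, a CHR element, or a CHR with a CCAAT box, for all compared genes and for 7 lists. Right, median log2 difference between libraries for genes grouped by their best match to the miR-105-5p seed, where miR-105 against vector and GFP against vector lie side by side, at 0.24 and 0.25 for 8mer genes.

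Genes were grouped by matches to the miR-105 seed in their 3′ UTR. Of 12211 compared genes with an annotated 3′ UTR, 539 held an 8mer to the 5p seed, 1316 its match without the A (7mer-m8) and 1216 the match to bases 2 to 7 with the A (7mer-A1). Of the 8mer genes 15.6% were higher and 14.5% lower, against 14.8% and 17.5% of the 9140 genes with no site. The median log2 difference of 8mer genes was 0.24 against vector and −0.012 against GFP, and that of genes with no site −0.0062 and −0.021. The GFP library, which has no miR-105 construct, also stood above vector for 8mer genes, with a median of 0.25 against −0.033 without a site. UTR length moved with the groups, with medians of 3124 bases for 8mer genes and 769.5 without a site. The shares of lower genes changed order with length. Among UTRs of up to 428 bases 16.7% of 12 8mer genes and 20.9% of genes with no site were lower, and from there to 1090 bases 10.9% and 17.7%. From 1090 to 2376 bases the shares were 18.5% and 15.5%, and above 2376 bases they lay close, at 13.4% and 12.8%. From 1090 to 2376 bases 8mer genes were also more often higher, at 20% against 15.4% with no site. From 428 to 1090 bases 21.8% and 14.8% were higher, and below that 0 of 12 8mer genes. Above 2376 bases 45 of 337 8mer genes and 186 of 1325 genes with no site were higher, and 45 of those 337 were lower. A larger share of lower genes in longer UTRs was thus not a shift of 8mer genes to 1 side. No difference between these shares was tested. Among genes with a UTR over 2376 bases, the 337 8mer genes had medians of 0.28 and −0.085, and the 1325 genes with no site 0.18 and −0.13. For the 3p arm, whose seed matches are rarer, 32 genes held an 8mer, 4 higher and 4 lower.

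Single genes with an 8mer were among the lower genes, as were many genes without one. Of the 8mer genes the lowest was PIK3IP1, an inhibitor of PI3 kinase, which stood at 23.0, 30.3 and 0.471 CPM and rested on 3 reads in the miR-105 library. IFIT2, an interferon-stimulated gene, stood at 16.9, 19.5 and 0.627 CPM, and KDR, the VEGF receptor, at 32.6, 33.0 and 1.73 CPM. Their sites are shown in the same form as those of the reported targets.
PIK3IP1 site: tgggaaattgctctGCATTTGActtaatt
IFIT2 site: acatcttgttgcacGCATTTGAggtcatc
KDR site: agcaggaagtagccGCATTTGAttttcat
These are 3 of the 78 8mer genes that were lower.

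MYC itself and its network moved in both directions, with 3 of 11 compared members higher and 3 lower. That is 27.3% each way, against 14.7% and 16.6% of all compared genes. MYC mRNA stood at 207, 198 and 463 CPM, 2.24-fold (2.11 to 2.37) and 2.34-fold (2.22 to 2.46) higher. MXD3, a MAX partner found in S phase, stood at 66.6, 50.6 and 169 CPM, and MGA at 14.3, 25.8 and 58.0 CPM, both counted as higher. The MAX partners MXI1, MXD4 and MNT were lower. MXD4 stood at 181, 182 and 26.04 CPM, 6.96-fold (5.93 to 8.22) and 6.97-fold (5.96 to 8.21) below the controls, and MNT at 53.4, 57.1 and 23.4 CPM, 2.29-fold (1.90 to 2.76) and 2.44-fold (2.05 to 2.93) below. MAX, the shared partner, stood at 91.7, 77.6 and 54.4 CPM, below both controls but under 2-fold against each, and MXD1 at 22.5, 32.1 and 38.4 CPM, above both but under 2-fold. MXI1 was therefore 1 of 3 MAX partners that were lower, while MXD3 and MGA were higher, so the partners did not move together. The folds of MXI1, given above, lay close to those of MXD4.

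Genes that build the ribosome, which MYC is known to serve, were mostly higher. Of ribosome biogenesis and RNA polymerase I genes 36 of 48 were higher and 0 lower, with medians of 1.43 and 1.60. Nucleolin (NCL) stood at 481, 442 and 1965 CPM, 4.08-fold (3.95 to 4.23) and 4.45-fold (4.31 to 4.59) higher. NOP56, a protein of box C/D particles, stood at 74.9, 57.3 and 392 CPM. POLR3G, a subunit of RNA polymerase III, stood at 3.24, 1.81 and 50.8 CPM, and NOLC1, a nucleolar chaperone, at 85.1, 90.7 and 485 CPM. The methyltransferase fibrillarin (FBL) stood at 120.00, 67.3 and 293 CPM. Cytosolic ribosomal protein genes did not follow: 0 of 54 were higher and 0 lower. Their medians were −0.89 and −0.018, and the GFP library itself stood 0.86 log2 units below vector, so that the miR-105 library matched 1 control and not the other.

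Many genes of lipid synthesis and glycolysis were higher. Of cholesterol genes 16 of 21 were higher and 1 lower, with medians of 1.52 and 1.60. INSIG1, the sterol sensor that is itself a SREBP target, stood at 18.3, 19.4 and 228 CPM, 12.5-fold (10.7 to 14.7) and 11.8-fold (10.3 to 13.5) higher. HMG-CoA synthase HMGCS1 stood at 30.8, 38.9 and 267 CPM. The 1 lower member, the sterol reductase TM7SF2, stood at 9.95, 7.44 and 2.04 CPM. Of fatty acid genes 6 of 14 were higher and 2 lower. The desaturase SCD stood at 59.0, 77.0 and 758 CPM, 12.8-fold (11.7 to 14.1) and 9.84-fold (9.21 to 10.53) higher, fatty acid synthase FASN at 199, 232 and 984 CPM and the elongase ELOVL6 at 14.8, 21.5 and 149 CPM, while ACSL1, which activates fatty acids, was lower at 628, 719 and 275 CPM and FADS3 at 65.1, 48.1 and 7.21 CPM.

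Of glycolysis genes 8 of 22 were higher and 0 lower, with medians of 1.00 and 0.93. Hexokinase HK2 stood at 7.46, 8.45 and 108 CPM, 14.4-fold (11.3 to 18.8) and 12.7-fold (10.47 to 15.6) higher, and enolase ENO1 at 1169, 949 and 3801 CPM, while pyruvate kinase PKM stood at 2347, 2153 and 2964 CPM, under 2-fold. Nuclear-encoded respiratory chain genes were higher in 2 of 34 and lower in 0, with medians of 0.11 and 0.50. NDUFA9, of complex I, stood at 43.6, 35.2 and 95.7 CPM. Heat shock chaperones were higher in 11 of 18 and lower in 0, with medians of 1.27 and 1.24. Among those higher, the HSP90 gene HSP90AA1 stood at 1039, 1072 and 3889 CPM, the constitutive HSP70 gene HSPA8 at 1818, 1730.4 and 5169 CPM and the chaperonin subunit CCT2 at 125, 119 and 469 CPM. In the unfolded protein and ATF4 list 5 of 24 were higher and 4 lower. These shares, 20.8% and 16.7%, lay near the 14.7% and 16.6% of all compared genes. The serine synthesis enzymes PHGDH and PSAT1 were higher, at 7.89, 6.21 and 52.5 CPM and at 12.1, 15.7 and 132 CPM, and the stress factors DDIT3, ATF3 and CHAC1 lower, at 21.6, 14.3 and 3.14 CPM, at 20.2, 28.0 and 3.14 CPM and at 3.57, 4.05 and 0.784 CPM. ATF4 itself stood at 678, 440.5 and 412 CPM, under 2-fold, and the chaperone HSPA5 at 446, 411 and 826 CPM, under 2-fold against vector.

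At the low end, the gene with the largest difference was MYBPC1, a myosin-binding protein (GRCh38 chr12:101568353-101686018, plus strand), with 1686 and 1993 reads in the controls, levels of 182 and 144 CPM, and 0 in the miR-105 library (at least 387-fold below vector and 306-fold below GFP). Lipocalin LCN2, an iron-binding acute-phase protein, stood at 614, 629 and 4.23 CPM, 145-fold (99.6 to 220.3) and 148-fold (102 to 225) lower. BMF, a pro-apoptotic BCL2 family member and FOXO target, stood at 401, 470.3 and 2.82 CPM, 142-fold (89.7 to 239.8) and 167-fold (105.3 to 281) lower. FBXO32, the atrogin ubiquitin ligase, likewise a FOXO target, stood at 385, 545 and 6.27 CPM, 61.4-fold (45.0 to 86.1) and 86.8-fold (63.7 to 122) lower. ATP6V1B1, a proton pump subunit, stood at 174, 134 and 1.57 CPM, GABRP, an epithelial GABA receptor subunit, at 47.1, 86.0 and 0.314 CPM and the interferon-induced GTPase GBP2 at 135, 134 and 1.88 CPM. YPEL3, which has been tied to growth arrest, stood at 198, 156 and 2.51 CPM. GALNT15 stood at 89.8, 70.0 and 0.627 CPM and CYP4B1 at 149.5, 100.2 and 1.57 CPM. PSG4 and ALPP completed the 12, at 58.2, 43.1 and 0.157 CPM and at 410.4, 405 and 7.69 CPM. Both have near-identical copies with which reads could be shared, so their own levels are uncertain. In the MYC library MYBPC1 stood at 6.54, LCN2 at 13.0, BMF at 54.5, FBXO32 at 215, ATP6V1B1 at 33.7 and GABRP at 1.80 CPM. There GBP2 stood at 132, YPEL3 at 57.6, GALNT15 at 56.5, CYP4B1 at 40.6, PSG4 at 0 and ALPP at 7.39 CPM. Low levels of these genes were thus in part shared with that library. In all, 120 of the lower genes had 0 reads in the miR-105 library.

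Genes that FOXO factors activate and insulin represses were lower in 16 of 23 and higher in 0, with medians of −1.59 and −2.29. TXNIP, which limits glucose uptake, stood at 2222, 2943 and 117 CPM, 19.1-fold (17.7 to 20.5) and 25.3-fold (23.5 to 27.2) below the controls. PDK4 stood at 243, 411 and 9.72 CPM, 25.03-fold (19.4 to 32.8) and 42.2-fold (32.9 to 55.2) lower. IRS2, the insulin receptor substrate, stood at 248, 278 and 84.1 CPM and cyclin G2 (CCNG2) at 135, 190.2 and 44.5 CPM, each lower by under 5-fold. YPEL3, given above, and PIK3IP1, at 23.0, 30.3 and 0.471 CPM, belong to the same list. The FOXO site GTAAACA lay in 4 of 21 promoters of the list (19.0%), against 2.43% of all compared genes. These promoters were counted whether or not the gene was lower.

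Genes induced by glucocorticoid, which the medium contained as hydrocortisone, divided, with 10 of 19 lower and 2 higher and medians of −1.36 and −1.23. TSC22D3 (GILZ) stood at 853, 535 and 29.2 CPM, 29.2-fold (25.3 to 33.99) and 18.4-fold (15.9 to 21.3) lower. The transcription factor ZBTB16 stood at 48.5, 102 and 7.999 CPM. FKBP5, an equally classical target, stood at 887, 931 and 856 CPM and did not differ 2-fold from either control. SGK1, at 151, 187 and 89.7 CPM, was under 2-fold below vector, and PER1, at 176, 170.5 and 88.3 CPM, just under 2-fold below each control. The 2 higher members were the metallothioneins MT2A and MT1X, at 42.2, 32.9 and 934 CPM and at 8.32, 5.27 and 77.3 CPM, which bind zinc and have close copies. The named members of this list thus lay on both sides of the controls.

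Inflammatory and NF-kB targets were lower in 12 of 24 and higher in 2, with medians of −1.28 and −1.04. The inhibitor NFKBIA stood at 178, 137 and 44.7 CPM, the subunit gene NFKB2 at 279, 225 and 44.2 CPM, 6.30-fold (5.57 to 7.15) and 5.09-fold (4.50 to 5.77) lower, and TNFAIP2 at 248, 307 and 54.7 CPM. The chemokines CXCL2 and CXCL3 were higher but rest on few reads, at 0.973, 0.578 and 5.33 CPM and at 0.649, 0.289 and 2.35 CPM. Interferon-stimulated genes were lower in 8 of 26 and higher in 3 (30.8% and 11.5%, against 16.6% and 14.7% of all compared genes). STAT2 stood at 172, 200.5 and 28.2 CPM, 6.10-fold (5.23 to 7.16) and 7.10-fold (6.10 to 8.30) lower, and IFIT1 at 4.86, 3.54 and 0.784 CPM, while OAS3 was higher at 2.59, 4.62 and 49.7 CPM. In MHC class I presentation 3 of 17 were lower and 1 higher, near the 16.6% of all compared genes that were lower. HLA-E stood at 321, 252 and 106 CPM, HLA-B at 50.9, 55.7 and 23.2 CPM and the loading factor TAPBP at 135, 138 and 51.0 CPM, whereas B2M, the shared light chain, stood at 442, 373 and 333 CPM, under 2-fold. HLA genes are similar in sequence, and reads may be split between them. The transactivator NLRC5 was higher at 1.51, 1.16 and 6.27 CPM.

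Of p53 targets 10 of 24 were lower and 0 higher, with medians of −0.98 and −0.90. TP53INP1 stood at 96.1, 158 and 9.10 CPM, 10.6-fold (8.10 to 14.03) and 17.4-fold (13.4 to 23.0) lower, GDF15 at 45.0, 51.4 and 4.86 CPM and the apoptosis gene BBC3 (PUMA) at 29.7, 26.8 and 4.55 CPM. MDM2, the feedback ligase of the pathway, stood at 133, 166 and 130.02 CPM, close to vector and under 2-fold below GFP. Hypoxia genes were lower in 5 of 16 and higher in 1. NDRG1 stood at 265, 259 and 84.5 CPM and BNIP3L at 148, 157 and 51.6 CPM, whereas VEGFA stood at 137, 222 and 199.8 CPM, between the controls, and CA9 was higher at 0.324, 0.0722 and 1.88 CPM on few reads.

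**Figure D5:**
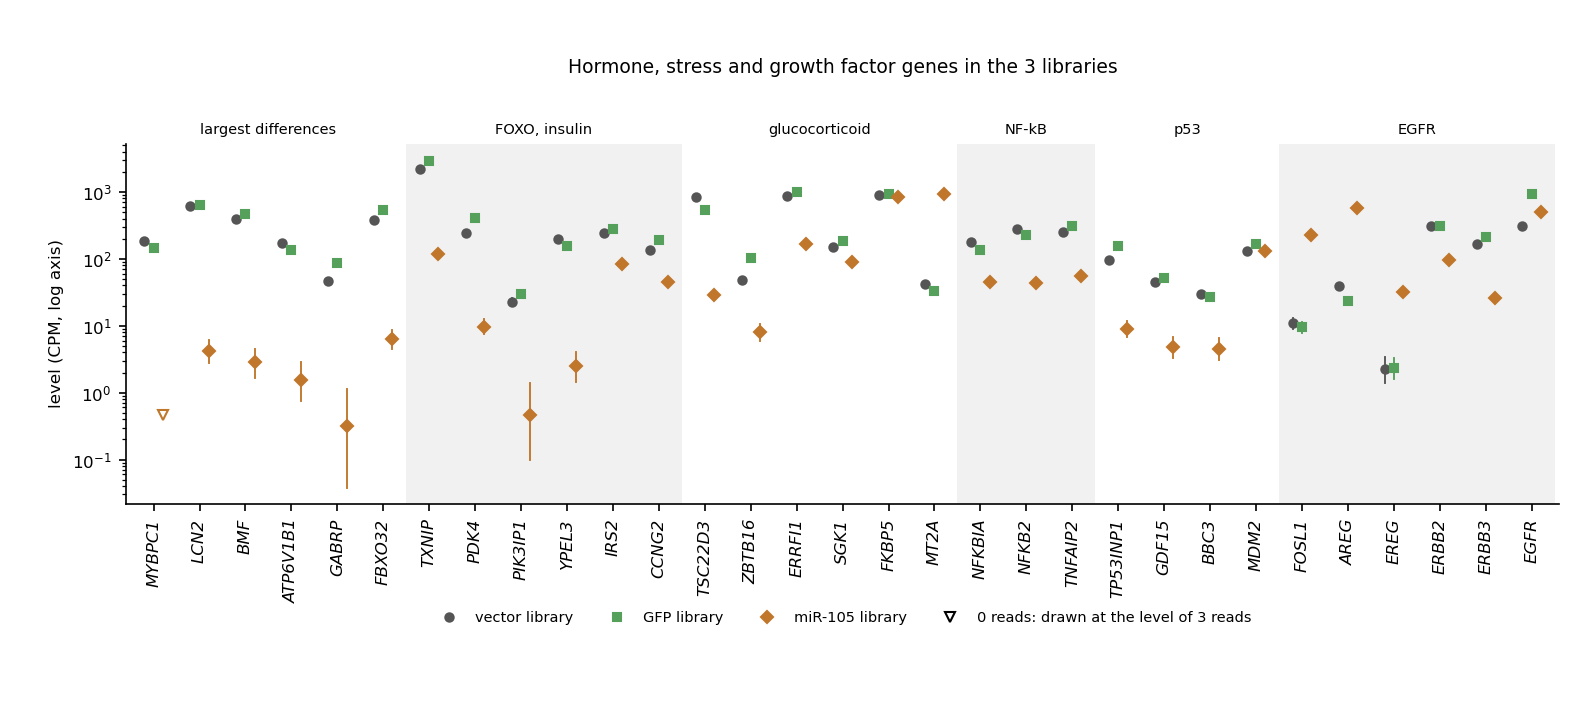
Level of hormone, stress and growth factor genes in CPM on a log axis in the vector, GFP and miR-105 libraries, 1 library each, with exact 95% Poisson counting intervals; an open triangle marks 0 reads and is drawn at the level of 3 reads. FOXO and insulin genes lie below both controls, FKBP5 and MDM2 lie close to them, and FOSL1, AREG, EREG and MT2A lie above both.

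Of EGFR ligands and MAPK feedback genes 13 of 26 were higher, 3 lower and 10 neither, with medians of 1.34 and 1.09. The ligands amphiregulin (AREG) and epiregulin (EREG) stood at 39.7, 23.8 and 585 CPM, 14.7-fold (13.2 to 16.5) and 24.6-fold (21.99 to 27.6) higher, and at 2.27, 2.31 and 32.2 CPM, 14.2-fold (9.02 to 23.4) and 13.9-fold (9.55 to 20.9) higher. FOSL1, the FRA1 subunit of AP-1, stood at 10.9, 9.46 and 226 CPM, 20.7-fold (16.9 to 25.6) and 23.9-fold (20.0 to 28.8) higher, and PHLDA1 at 23.5, 24.3 and 314 CPM. The feedback inhibitors SPRY4 and DUSP6 were higher too, at 3.78, 4.62 and 28.9 CPM and at 10.4, 11.4 and 33.1 CPM. The 3 lower members were the receptors ERBB2 and ERBB3, at 313, 313 and 94.7 CPM and at 169, 210.1 and 26.2 CPM, and ERRFI1, an inhibitor of the receptor that glucocorticoid also induces, at 875, 1000.2 and 168 CPM. EGFR lay between the controls.

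Of TGF-beta and YAP targets 2 of 19 were higher and 4 lower. TGFBI stood at 909, 1030.1 and 3284 CPM and tissue factor F3 at 173, 277 and 846 CPM, both higher, SMAD6 at 8.76, 10.8 and 0.784 CPM and AMOTL2 at 277, 309 and 88.6 CPM, both lower. The YAP targets CTGF and CYR61 stood at 28.6, 32.4 and 29.02 CPM and at 71.4, 81.6 and 53.5 CPM and did not differ 2-fold.

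Beside TJP1, most junction genes did not pass the threshold. Of 30 tight and adherens junction genes 8 were lower and 0 higher, with medians of −0.39 and −0.81. Claudin-1 (CLDN1) stood at 342, 472 and 27.0 CPM, 12.7-fold (10.9 to 14.9) and 17.5-fold (15.03 to 20.5) lower, TJP3 (ZO-3) at 25.8, 30.7 and 0.784 CPM, on 5 reads in the miR-105 library, and CLDN8 at 6.70, 5.06 and 0.784 CPM. E-cadherin CDH1 was below both controls but under 2-fold against vector, as was occludin OCLN at 35.5, 47.9 and 19.9 CPM. Beta-catenin CTNNB1 stood at 298, 411 and 466 CPM. Among desmosome and hemidesmosome genes 3 of 18 were lower, ITGB4, LAMB3 and PERP, and 1 higher, again near the 16.6% lower among all genes. ITGA6, the integrin partner of ITGB4, was higher at 104.9, 170.04 and 918 CPM, and ITGB4 stood at 1938, 1934 and 737 CPM, 2.63-fold (2.55 to 2.71) and 2.62-fold (2.54 to 2.71) lower, so the 2 chains of this hemidesmosomal integrin moved apart.

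Keratins and lineage genes split as well. Of basal mammary markers 7 of 16 were lower and 2 higher. KRT17 stood at 6927, 5131 and 766 CPM, 9.04-fold (8.78 to 9.31) and 6.70-fold (6.51 to 6.90) lower, and KRT14 at 511, 387 and 124 CPM, while KRT5 was 2.65-fold (2.60 to 2.70) and 2.88-fold (2.83 to 2.93) higher. The peptidase MME (CD10) stood at 154, 185 and 12.2 CPM and TAGLN at 102, 159 and 23.1 CPM, both lower. Of luminal markers 5 of 12 were lower and 0 higher: MUC1 stood at 1785, 1643 and 257 CPM, GATA3 at 71.6, 67.1 and 18.2 CPM and KRT19 at 19.8, 7.15 and 1.73 CPM, while KRT18 stood at 122, 86.5 and 240.4 CPM, under 2-fold against vector. Basal and luminal lists therefore both held lower members. Of squamous genes 6 of 23 were higher and 7 lower (26.1% and 30.4%, against 14.7% and 16.6% of all compared genes). KRT6B was higher at 797, 889.9 and 2167 CPM and shares sequence with KRT6A and KRT6C, transglutaminase TGM1 stood at 139.8, 105.03 and 14.7 CPM and the protease KLK5 at 373, 447 and 75.6 CPM, the last 2 lower, and involucrin IVL stood at 17.2, 24.99 and 13.2 CPM, under 2-fold.

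Mesenchymal regulators were higher in 4 of 17 (23.5%, against 14.7% of all compared genes) and lower in 0. N-cadherin (CDH2) had 11, 18 and 51 reads. Integrin ITGA5 stood at 85.2, 82.9 and 295 CPM and tenascin TNC at 2.59, 22.2 and 89.2 CPM, where the controls differed 8.58-fold from each other. Vimentin (VIM) stood at 66.2, 9.97 and 128 CPM and fibronectin (FN1) at 2405, 7563 and 1966 CPM; the controls lay further apart than 2-fold for both, and neither passed against both. SNAI2 stood at 149.9, 118 and 140.1 CPM and ZEB1 at 4.86, 6.50 and 5.33 CPM, both between the controls. Matrix genes were lower in 6 of 20 and higher in 2. COL7A1, the anchoring fibril collagen, stood at 114, 123 and 27.6 CPM and perlecan HSPG2 at 334, 559.5 and 136 CPM, both lower, while the crosslinking enzyme LOXL2 was higher at 21.9, 34.9 and 160.3 CPM.

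Of microRNA processing genes 1 of 13 was higher and 1 lower. The exporter XPO5 was higher at 54.9, 64.8 and 157 CPM and the Argonaute AGO4 lower at 57.9, 88.8 and 16.3 CPM. AGO2, the slicing Argonaute, stood at 18.9, 44.8 and 86.3 CPM, far above vector but under 2-fold above GFP. The nucleases DICER1 and DROSHA stood at 66.5, 126 and 122 CPM and at 55.8, 72.8 and 106 CPM, under 2-fold. Vesicle release genes, by which cells export microRNA in exosomes, were lower in 3 of 19 and higher in 0, a share near the 16.6% lower among all genes. RAB27A, which docks vesicles for release, stood at 17.6, 19.0 and 23.2 CPM and CD63, an exosome marker, at 383, 349 and 308 CPM, while SMPD3, which generates ceramide for budding, was lower at 4.76, 4.05 and 1.41 CPM. Lysosome and autophagy genes were lower in 3 of 19, TFEB, CTSS and GABARAPL1, again a share near that of all genes, and GABARAPL1 stood at 167, 179 and 9.88 CPM. Of 25 housekeeping genes 8 were higher (32.0%, against 14.7% of all compared genes) and 0 lower, with medians of 0.36 and 0.55. HPRT1 stood at 16.2, 14.7 and 84.9 CPM and GPI at 251, 189 and 702 CPM. A difference of about 0.5 log2 units thus appeared in genes used as references, and values of that size are not read here as differences. Genes used as references also passed the 2-fold rule upwards more often than genes at large.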

How the data were processed

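Poly(A) RNA of 4 MCF10A lines was sequenced, 1 library each. Per the submitters' processing notes, TopHat2, edgeR and the hg19 build were used, with no versions; the annotation, strand setting and counter are not stated in these sources. The deposited values are expected counts, edgeR counts adjusted to a common library size as their values show, and inverting that adjustment with edgeR 4.0.16 (R 4.3.3) gave whole reads for every value within a relative 1e-05. Of 18859 lines, 19 exact repeats were dropped. Reads were scaled to CPM with TMM, 0.5 CPM was added for log2 values, and genes under a mean of 1 CPM were left out. With 1 library per construct the reported results carry no p-value; as alternatives, edgeR and DESeq2 were run with both controls as 1 group (adjusted p threshold 0.05). A fold against 0 reads was set against 3 reads. Intervals are exact (Clopper-Pearson for ratios, Poisson for levels), and cover counting error only, as the labels mention no molecular identifiers.

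Genes are named if among the 12 largest differences in each direction by the smaller of both log2 differences, among the 3 largest of a list in each direction, or preset anchors; MXI1 and TJP1 are named as reported targets. The 44 lists, members and alternatives were chosen with earlier results of these data known. Gene coordinates and UTRs are from GENCODE release 29 (GRCh38), and promoters and microRNAs from RefSeq (GRCh38.p14), matched by symbol. On simulated data for this comparison (12484 genes), 95.5% of 200 genes changed 4-fold were found by the 2-fold rule. Those 200 were drawn only from genes whose control levels lay well above the expression filter. The share therefore does not cover genes that were low in the controls, and unchanged genes past 2-fold are not reported here. Python 3.11.15, scipy 1.17.1, pandas 2.3.3 and DESeq2 1.42.0 were also used. Some genes of the lists are not reported here.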

Additional observations from a re-analysis of the deposited data

How the results depend on the processing

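The number of genes higher in the miR-105 library was 2997 at a 1.5-fold and 565 at a 4-fold threshold, and the number lower was 3088 and 786. Under the other alternatives the counts lay between 1596 and 2488 higher and between 1552 and 2618 lower, within 1.5 times those reported. With vector and GFP taken as replicates of 1 group, which assumes that the lone miR-105 library varies as they do, edgeR called 2488 higher and 2428 lower, of which 1816 and 1994 are among the genes reported, and DESeq2 called 1786 and 1841. Of 344 alternatives for list medians 58 moved beyond their limit and 0 changed sign, and of 1260 for single genes 185 and 0. The shallow miR-105 library limits low genes: 120 lower genes had 0 reads there, which allows up to 0.471 CPM each. No paired analysis was possible because each construct has 1 library and no replicate numbers.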

Other observations

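Some gene families also held many members on 1 side. Over all compared genes 14.7% were higher and 16.6% lower. They were chosen after their values were seen, and some of their members (CLDN1, CLDN8, MT2A, MT1X, MUC1, YPEL3 and XPO5 among them) are already counted in the lists above. Of 15 alpha and beta tubulin genes, the subunits of microtubules, 11 were higher and 0 lower, with medians of 2.24 and 2.30 log2 units, although near-identical tubulin genes can share reads. Of 21 importins and exportins, which carry cargo through nuclear pores, 10 were higher and 1 lower. Of 24 hnRNP genes 10 were higher and 0 lower, and HNRNPCL1, HNRNPCL3 and HNRNPCL4, not among those higher, had identical reads. All 8 compared metallothioneins were higher, with medians of 3.03 and 3.31, and they too have close copies.

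On the lower side, 7 of 8 mucins, 5 of 11 claudins and all 4 YPEL genes were lower, with 0 higher in each family. The 15 protocadherin alpha genes were all lower, with medians of −2.61 and −2.95, but they share most of their transcript and have near-identical values, so they do not count as 15 separate measurements. Of 8 protocadherin beta genes 5 were lower, and of 22 protocadherin gamma genes 0. Most gamma genes also have near-identical values, so they do not count as 22 separate measurements. Of 8 genes of the aryl hydrocarbon receptor pathway, the receptor and its partner included, 4 were lower (CYP1A1, CYP1B1, ALDH3A1 and AHRR) and NQO1 was higher.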
